A study of Rattus norvegicus with 48 samples.

Results

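The genes described here encode the proteins of the spliceosome and the proteins that regulate it. Members were taken by gene name from the series' table (the Snrp, Lsm, Sf3a, Sf3b, Prpf, Srsf, Hnrnp and Luc7l families with Ddx46, Rbm25 and Rbm39), and a name was kept if it averaged at least 1 CPM (the usual unit for a gene's count scaled to the total of its library) over all 48 libraries. Of 80 names that matched, 78 were kept, out of 32285 gene identifiers in all. The names left out were Snrpd2l, with a mean of 0.0837 CPM, and Snrpep2, listed at 0, while the lowest members kept were Lsm11, at medians of 1.87 to 2.56 CPM in the 6 groups, and Srsf12, at medians of 2.21 to 3.09 CPM. The core snRNP side held 31 members, made up of 17 Sm and U snRNP proteins, 9 SF3 proteins and 5 PRPF proteins of the tri-snRNP. The regulator side held 29, made up of 11 SR and 18 hnRNP proteins. The remaining 18 were 9 assembly and activation factors, 4 Sm-like proteins that act outside the spliceosome, and 5 regulators that associate with U1 or U2. Hnrnpk was not analysed here.

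The spliceosome removes introns from pre-mRNA and is built on each intron from small nuclear ribonucleoproteins (snRNPs), which are RNA-protein particles. The U1 snRNP recognises the 5′ splice site and the U2 snRNP, through its SF3A and SF3B complexes, the branch point, after which the U4/U6.U5 tri-snRNP joins and the complex is activated. SR proteins mostly favour the use of a nearby exon and hnRNP proteins often oppose it, so the balance of the regulators shapes which exons a transcript keeps, while the core particles are needed at nearly every intron.

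Lung RNA was sequenced from 48 male Sprague-Dawley rats in 6 groups of 8. In whole-body chambers the controls breathed filtered air, and the exposed animals breathed fracking sand dust (30 mg/m3) together with diesel particles (1 mg/m3). Sessions lasted 6 hours on each of 4 days, and lungs were taken 1, 7 or 27 days later. Air and exposed animals of the same day were compared, to ask which transcripts differed after the inhalation. The labels give neither the animals' ages nor a sequencing batch, and they do not say which animals shared a cage.

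Promoter sequences were available for 73 of the 78 members (RefSeq, rat build GRCr8, matched by symbol, 300 bases running from 250 before to 50 after the annotated start). The 140 bases before the start are shown for 4 members whose levels differed at day 27, 2 core proteins that were lower (Sf3a2 and Snrpb) and 2 regulators that were higher (Luc7l2 and Hnrnpa3). Capitals mark the short elements searched for. Sf3a2 lies at chr7:9566206-9566345 on the minus strand, Snrpb at chr3:137832480-137832619 on the minus strand, Luc7l2 at chr4:68254426-68254565 on the plus strand and Hnrnpa3 at chr3:80985794-80985933 on the plus strand.
Sf3a2: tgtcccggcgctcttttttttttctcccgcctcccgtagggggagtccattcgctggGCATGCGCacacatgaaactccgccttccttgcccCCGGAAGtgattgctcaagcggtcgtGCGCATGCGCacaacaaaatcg
Snrpb: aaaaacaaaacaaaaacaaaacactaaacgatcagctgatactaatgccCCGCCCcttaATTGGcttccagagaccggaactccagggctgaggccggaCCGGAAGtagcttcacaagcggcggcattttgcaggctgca
Luc7l2: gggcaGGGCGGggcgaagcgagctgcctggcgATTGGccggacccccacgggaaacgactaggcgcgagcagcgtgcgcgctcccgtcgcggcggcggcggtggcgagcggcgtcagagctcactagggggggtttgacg
Hnrnpa3: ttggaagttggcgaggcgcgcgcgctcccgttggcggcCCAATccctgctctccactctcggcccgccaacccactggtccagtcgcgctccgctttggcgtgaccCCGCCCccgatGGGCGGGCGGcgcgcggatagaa
In Sf3a2 the capitals are an ETS element 48 to 42 bases before the start and NRF1 elements at 83 to 76 bases and, on both strands and overlapping, at 22 to 13 bases. In Snrpb they are an ETS element at 41 to 35 bases, an SP1 element at 91 to 86 bases and an NFY element at 81 to 77 bases. Luc7l2 showed an SP1 element at 135 to 130 bases and an NFY element at 108 to 104 bases, and Hnrnpa3 showed SP1 elements at 34 to 29, 23 to 18 and 19 to 14 bases and an NFY element at 102 to 98 bases. Not every core promoter held an ETS element: the 300-base window of Snrpa, also lower at day 27, held an NFY element and no ETS element. The window of Hnrnpa0, a regulator that was lower at day 27, held SP1 and NFY elements and no ETS element. Whether the elements go with the direction of the difference was not tested.

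The same elements were counted on both strands of every 300-base window, in the members and in all 27457 promoters of the table. The ETS letters CCGGAAG were in 36.7% of core snRNP promoters (11 of 30), 17.9% of SR and hnRNP promoters (5 of 28) and 9.22% of all promoters. The NRF1 letters GCGCATGC were in 13.3% of core promoters (4 of 30), 3.57% of SR and hnRNP promoters (1 of 28) and 2.66% of all. In these small counts the core promoters held both elements more often than the regulators' did, a difference that was not tested. The promoters of the whole table were not selected for expression in lung, while the members were. The SP1 letters GGGCGG were in 82.1% of SR and hnRNP promoters (23 of 28), 46.7% of core promoters and 34.9% of all. The NFY letters CCAAT were in 71.4% of SR and hnRNP promoters (20 of 28), 33.3% of core promoters and 37.7% of all. The TATA box letters TATAAA were in no core promoter, in 14.3% of SR and hnRNP promoters (4 of 28) and in 14.3% of all. The windows also differed in composition, with a median GC content of 65.3% for SR and hnRNP, 56.3% for core and 52.3% for all promoters. The median number of CG letter pairs was 29.5, 20 and 7 in the same order. The share of each count that goes with GC content or CG pairs was not tested. A match is a description of these letters and not of a bound site.

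**Figure D1:**
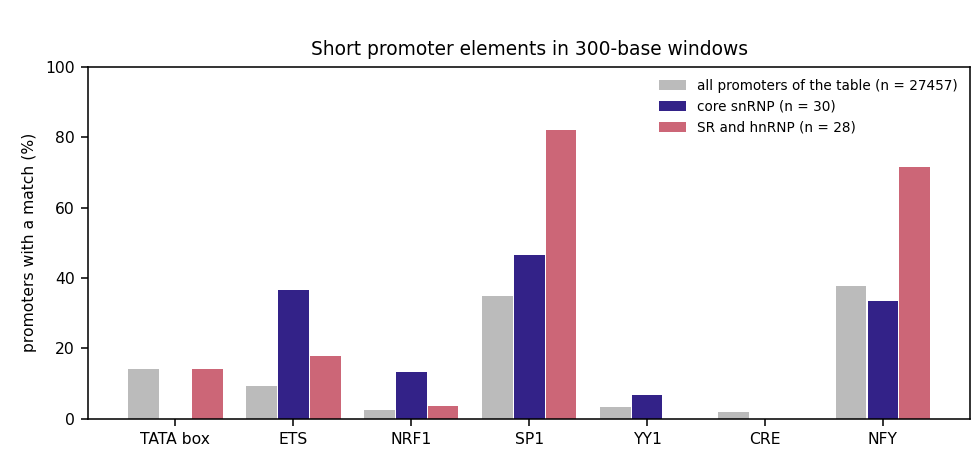
Share of promoters (percent, vertical axis) that hold each of 7 short elements within 300 bases around the start, for all 27457 promoters of the RefSeq table (grey), 30 core snRNP members (blue) and 28 SR and hnRNP members (red). ETS and NRF1 elements were most frequent in core promoters, SP1 and NFY elements in SR and hnRNP promoters, and no core promoter held a TATA box.

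Library totals ran from 9445687 to 14400337 counts with a median of 12004528. In 4 pairs of libraries within a group the counts lay closer together (1.44 to 1.67 times counting noise) than in the other 164 of 168 pairs (at least 2.42 times): at day 1, exposed libraries 1 and 4, at day 7, exposed libraries 3 and 6 and air libraries 1 and 4, and at day 27, air libraries 3 and 6. Each pair was averaged into 1 replicate for means and SDs, so that n is 7 in those groups, while the tests used 8 libraries a group. The lung markers were present throughout, with summed levels of 14051 to 21964 CPM for alveolar type 2 cells, and the liver markers did not exceed 0.601 CPM. In 19 members more than 5% of the values were not whole numbers, as when reads are divided between near-identical copies, and their values are uncertain. Among the genes described below these are Hnrnpa1, Hnrnpa2b1, Hnrnpa3, Hnrnph1, Rbm25, Rbm39, Snrpc, Snrpn, Srsf3 and Srsf7.

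No member passed the test at days 1 and 7, and the members that passed at day 27 differed by 10.1% to 22.4%. At day 27, 6 of 78 members passed edgeR's quasi-likelihood test at an adjusted p under 0.05, which is 7.69% of them against 5.52% of all 14192 genes tested. Of these, 4 were lower (3.33% of all genes were) and 2 were higher (2.18% of all genes were). The lower ones were Sf3a2, Snrpa, Snrpb and Hnrnpa0, and the higher ones Luc7l2 and Hnrnpa3. At an unadjusted p under 0.05, 12 members were higher and 18 lower, 38.5% of them against 26.7% of all genes. The share of members that passed therefore lay near that of all genes. The directions of the members in each class, given below, are a description with no test. Members of a class were measured in the same libraries, so these counts are not independent. All 6 calls ended when the close pair of the air day 27 group was summed into 1 library. Adjusted p was then 0.0506 for Sf3a2 to 0.0749 for Hnrnpa3 (edgeR), with log2 fold changes of -0.31 and 0.14, and 5 genes were left over the whole table. Of the 16 fits that left out 1 day 27 library, Sf3a2 was called in 15, Luc7l2 in 8, Snrpa in 7, Snrpb in 6, and Hnrnpa0 and Hnrnpa3 in 5 each (edgeR), so that most omissions ended the last 4 of these calls.

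**Figure D2:**
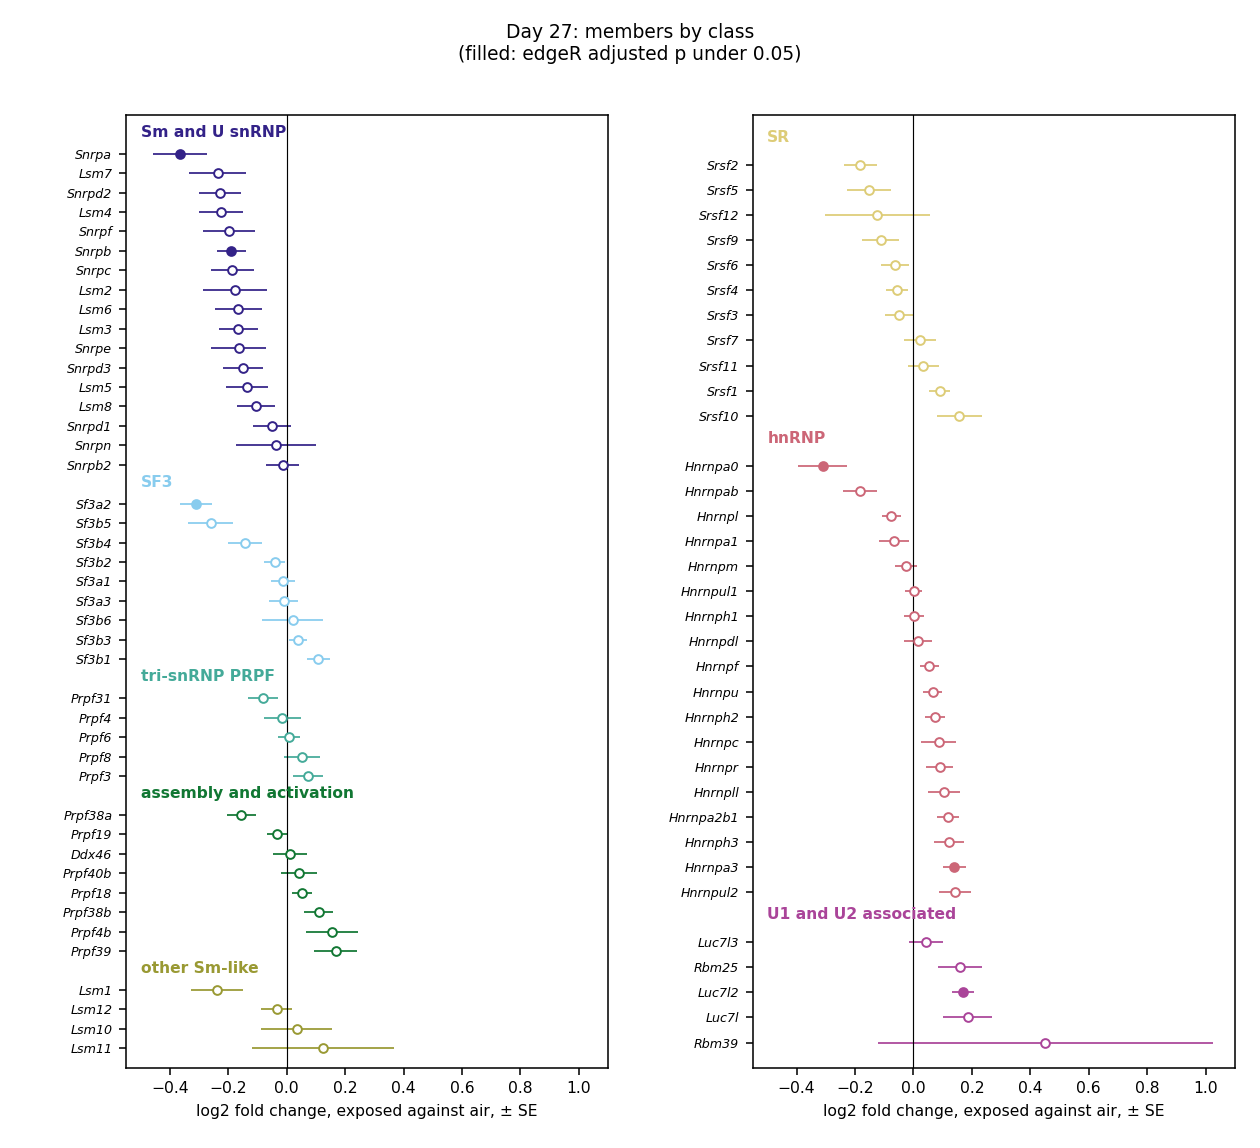
Log2 fold change of exposed against air lungs at day 27 (horizontal axis, the same in both panels) for the members by class, 1 assembly and activation factor left out, with bars of 1 SE from edgeR, and filled points for an adjusted p under 0.05. All 17 Sm and U snRNP points lie below 0 and all 5 U1 and U2 associated points lie above it, the bar of Rbm39 being the widest.

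The Sm and U snRNP proteins form the ring that clasps each spliceosomal RNA, together with the proteins bound to U1 and U2 and the LSm ring of U6. All 17 had a log2 fold change below 0 at day 27, from -0.36 to -0.014 with a median of -0.17, beside a median of -0.0081 over all genes tested. Of the 17, 2 passed edgeR's test, Snrpa and Snrpb, and 9 had an unadjusted p under 0.05. Snrpa, the U1 snRNP protein A (ENSRNOG00000001501), stood at 9.24, 13.5 and 14.8 CPM (lowest, median and highest) in air and at 8.94, 9.99 and 11.3 CPM after exposure. The groups overlapped through the lowest air libraries, and each exposed library was below the mean of the air group. Its mean was 12.9 ± 2.01 CPM in air (SD, n = 7) and 10.1 ± 0.727 CPM after exposure (SD, n = 8), 22.4% lower as fitted (edgeR, log2 fold change -0.36 ± 0.091 SE, adjusted p = 0.0342). Snrpb, the Sm ring protein B (ENSRNOG00000006961), stood at 84.9, 100.2 and 112 CPM in air and 81.2, 86.2 and 90.5 CPM after exposure. Exposed libraries were again all below the air mean and spread less than the air libraries, whose mean was 97.9 ± 9.56 CPM (SD, n = 7) against 85.99 ± 2.83 CPM (SD, n = 8). The difference was -0.19 ± 0.050 on the log2 scale (edgeR adjusted p = 0.0369), or 12.4% lower.

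The other members of the class did not pass edgeR's test, some of them with log2 fold changes as large as that of Snrpb. Snrpd1, the Sm ring protein D1, had medians of 29.6 CPM in air and 28.3 CPM after exposure (log2 fold change -0.051, edgeR adjusted p = 0.642). Snrpc, a U1 protein that touches the 5′ splice site pairing, had medians of 40.2 and 37.0 CPM (-0.19 ± 0.074, edgeR adjusted p = 0.120), and Lsm7, of the U6 ring, 14.9 and 12.6 CPM (-0.24 ± 0.098, edgeR adjusted p = 0.135). Snrpn, the Sm protein best known from brain, had nearly equal medians of 8.32 and 8.33 CPM (edgeR adjusted p = 0.884). Leaving out 1 day 27 library at a time, 15 to 17 of the 17 stayed below 0, with a class median of -0.20 to -0.14. Without air library 7, the highest of the class, 15 stayed below 0.

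SF3A and SF3B bind the U2 snRNP at the branch point. Of the 9 members, 6 lay below 0 and 3 above at day 27, with a median of -0.014, and 1 passed the test. Sf3a2, a subunit of SF3A (ENSRNOG00000019349), stood at 37.9, 42.3 and 47.8 CPM in air and 29.4, 34.1 and 36.6 CPM after exposure (lowest, median and highest). The groups did not overlap: the highest exposed library lay under the lowest air library. Across all genes 0.444% showed such a separation at day 27, and among the members 2 did, Sf3a2 and Luc7l2. The means were 42.1 ± 3.52 CPM (SD, n = 7) and 34.0 ± 2.37 CPM (SD, n = 8), a difference of -0.31 ± 0.056 on the log2 scale and 19.3% as fitted (edgeR adjusted p = 0.0208). The call was lost without exposed library 3 (edgeR adjusted p = 0.0550) and kept in the other 15 fits that left out 1 library. Sf3b5, a small SF3B subunit, had medians of 45.0 and 38.4 CPM and did not pass (-0.26 ± 0.078, edgeR adjusted p = 0.0547). Sf3b1, the scaffold of SF3B, lay on the other side, at medians of 441 CPM in air and 477 CPM after exposure (0.11 ± 0.038, edgeR adjusted p = 0.0898). The subunits of SF3 thus spread in both directions.

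The PRPF proteins of the tri-snRNP lay close to 0 at day 27, with 3 above and 2 below and a median of 0.0082. Prpf8, the large protein at the centre of the U5 snRNP, stood at 308, 366 and 438 CPM in air and 350, 386 and 425 CPM after exposure, with the groups overlapping throughout (log2 fold change 0.053 ± 0.063, edgeR adjusted p = 0.615). Prpf31, which holds U4 and U6 together, had medians of 34.9 and 34.2 CPM (-0.080 ± 0.051, edgeR adjusted p = 0.319). At day 27, 0 of the 5 passed in edgeR, DESeq2 or limma-voom, and 0 had an unadjusted p under 0.05. Over all genes, 11.8% passed in DESeq2 and 5.31% in limma-voom.

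Assembly and activation factors were mostly above 0 at day 27, 7 of 9 with a median of 0.053, and 0 passed edgeR's test while 3 were higher and 1 lower at an unadjusted p under 0.05. DESeq2, which called 11.8% of all genes, called 1 higher and 1 lower, and limma-voom (5.31% of all genes) called 0. Those below 0 were Prpf38a and Prpf19, named after their values were seen. Ddx46, a helicase that acts on the U2 snRNP, had medians of 120.2 and 117 CPM (edgeR adjusted p = 0.911). Of the Sm-like proteins outside the spliceosome, Lsm1, part of the ring that marks messenger RNA for decay, had medians of 15.8 CPM in air and 12.8 CPM after exposure (-0.24 ± 0.089, edgeR adjusted p = 0.104), each exposed library being under the mean in air.

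SR proteins carry serine-arginine repeats and bind exons. Of 11, 7 lay below 0 and 4 above at day 27, with a median of -0.057, and 0 passed the test in edgeR, with 1 higher and 1 lower at an unadjusted p under 0.05. DESeq2 called 1 in each direction, beside 11.8% of all genes, and limma-voom 0, beside 5.31% of all genes. Srsf2 stood at 159.7, 169 and 205 CPM in air and 138, 149 and 175 CPM after exposure. Of its exposed libraries 7 lay below the air mean and 6 below the lowest air library (-0.18 ± 0.058, edgeR adjusted p = 0.0654). Srsf1 lay on the other side, with medians of 261.1 and 274.2 CPM and 7 of 8 exposed libraries above the mean in air (0.089 ± 0.035, edgeR adjusted p = 0.119). Srsf5 had medians of 208 and 188 CPM (-0.15 ± 0.076, edgeR adjusted p = 0.209). Srsf3 and Srsf7, small SR proteins that also act in RNA export, had log2 fold changes of -0.050 and 0.022 (edgeR adjusted p = 0.524 and 0.824). The SR family therefore held members on both sides with no call in edgeR.

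The hnRNP proteins coat nascent transcripts. At day 27, 13 of 18 lay above 0, with a median of 0.060, and 1 passed in each direction. Hnrnpa0 (ENSRNOG00000039876), which binds AU-rich elements, stood at 43.5, 55.4 and 66.6 CPM in air and 33.5, 44.6 and 52.4 CPM after exposure. Each exposed library was under the mean in air and 4 were under the lowest air library, at means of 54.5 ± 5.47 CPM (SD, n = 7) and 44.4 ± 5.78 CPM (SD, n = 8). The difference was -0.31 ± 0.084 on the log2 scale, 19.4% lower (edgeR adjusted p = 0.0408). Hnrnpa3 (ENSRNOG00000052968), a partner of mRNA transport and export, moved the other way. It stood at 254.1, 273.7 and 285.2 CPM in air, and after exposure at 282.05, 294.1 and 327 CPM, where 7 of 8 libraries lay above the highest air library. Means were 273.5 ± 11.3 CPM (SD, n = 7) and 300.1 ± 16.3 CPM (SD, n = 8), a log2 difference of 0.14 ± 0.039 or 10.1% (edgeR adjusted p = 0.0451). Hnrnpa2b1, its close relative, had medians of 435 and 472 CPM (0.12 ± 0.038, edgeR adjusted p = 0.0675). Hnrnpu, a chromatin-bound hnRNP, had 531 and 548 CPM (0.066 ± 0.033, edgeR adjusted p = 0.200), and Hnrnpa1, which competes with SR proteins at exons, 353 and 325 CPM (-0.067 ± 0.052, edgeR adjusted p = 0.419). Hnrnph1 and Hnrnpdl had log2 fold changes of 0.0016 and 0.015 (edgeR adjusted p = 0.983 and 0.865). The family was thus mixed, with its A/B members on both sides.

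The regulators that associate with U1 or U2 were all above 0 at day 27, 5 of 5 with a median of 0.17, and 1 passed. Luc7l2 (ENSRNOG00000006001), a U1 snRNP partner that affects the choice of 5′ splice sites, stood at 103, 115 and 119 CPM in air. In exposed lungs it stood at 119, 127 and 134 CPM, with all 8 libraries above the highest air library. The gap was narrow, at 119.2 CPM in exposed library 6 against 118.9 CPM in air library 4. The means were 114 ± 4.99 CPM (SD, n = 7) and 127 ± 5.45 CPM (SD, n = 8), a log2 difference of 0.17 ± 0.039 or 12.5% (edgeR adjusted p = 0.0288). Leaving out 1 day 27 library at a time, 8 of 16 fits kept this call, at adjusted p of 0.0140 to 0.0643 (edgeR), with log2 fold changes of 0.15 to 0.18. Its relatives Luc7l and Luc7l3 had log2 fold changes of 0.19 ± 0.084 and 0.043 ± 0.060 (edgeR adjusted p = 0.166 and 0.671), and Rbm25, an activator of weak 5′ splice sites, 0.16 ± 0.076 (edgeR adjusted p = 0.184).

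Rbm39, a cofactor related to the U2AF proteins, varied widely between libraries. At day 27 its 8 air libraries stood at 51.9, 44.8, 18.8, 67.7, 2.43, 29.8, 0 and 24.6 CPM, and its exposed libraries ran from 23.8 to 57.8 CPM with a median of 44.3. The air libraries spanned the whole range of the exposed ones, and library 7 was listed at 0. The log2 fold change of 0.45 ± 0.57 did not pass (edgeR adjusted p = 0.642). Of its values, 97.9% were not whole, as when reads are divided with another copy, and class levels of the U1 and U2 associated genes are given without it.

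**Figure D3:**
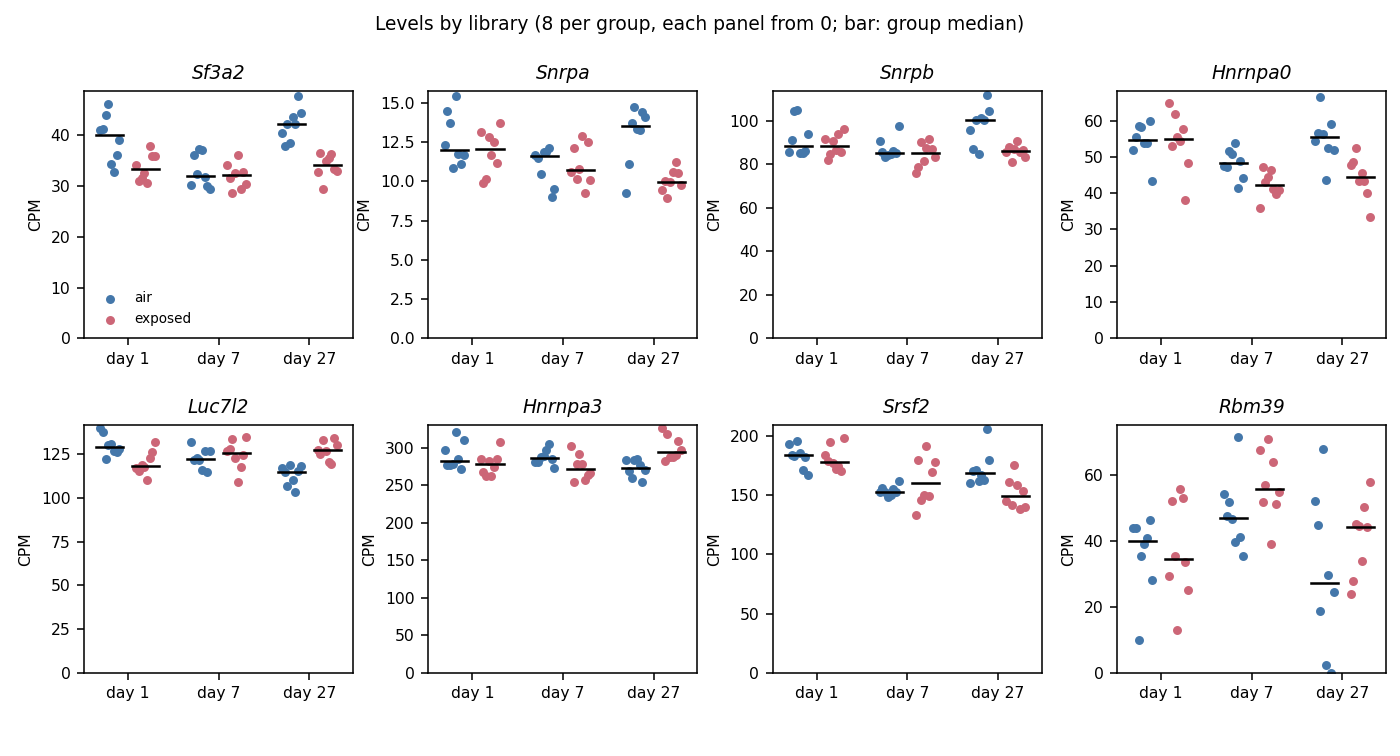
CPM of 8 members in each of the 48 libraries (points, blue for air and red for exposed, 8 per group, vertical axes from 0) with group medians as bars. At day 27 the groups do not overlap for Sf3a2 and Luc7l2, overlap partly for Snrpa, Snrpb, Hnrnpa0, Hnrnpa3 and Srsf2, and the Rbm39 air libraries spread from 0 to 67.7 CPM.

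To set the core particles against the regulators, the mean log2 CPM of each class was taken per library and given relative to the mean of the 8 air libraries of the day, as a description with no test. At day 27, 25 of 31 core snRNP members lay below 0 with a median log2 fold change of -0.14, beside 12 of 29 SR and hnRNP members with a median of 0.015. Neither side was uniform. On the core side the median was -0.17 for Sm and U snRNP, -0.014 for SF3 and 0.0082 for the tri-snRNP PRPF proteins. On the regulator side it was -0.057 for SR and 0.060 for hnRNP proteins, which lay in opposite directions. The core level ran from -0.14 to 0.13 in air and from -0.16 to -0.039 in exposed libraries, so the groups overlapped while each exposed library was under the mean in air. The SF3 level ran from -0.13 to 0.061 in air and from -0.11 to -0.044 in exposed libraries, again all under the air mean. It was under the air mean in 8 of 8 exposed libraries at day 1 (-0.13 to -0.012) and in 7 of 8 at day 7. The SR and hnRNP level ran from -0.030 to 0.015 in air and from -0.058 to 0.032 in exposed libraries, around the same centre. Core minus regulator level was -0.0034 ± 0.098 in air (SD, n = 7) and -0.10 ± 0.046 after exposure (SD, n = 8), with ranges of -0.14 to 0.12 and -0.19 to -0.047. It was below the air mean in 8 of 8 exposed libraries at day 27, in 8 of 8 at day 7 (from -0.10 to -0.00044) and in 6 of 8 at day 1. With 1 surrogate variable in the fit, which stands for unlabelled variation between libraries, the core median at day 27 shrank to -0.052, with 22 of 31 below 0. The Sm and U snRNP median was then -0.065, with 15 of 17 below 0, and the median of the U1 and U2 associated regulators 0.060, with 3 of 5 above 0.

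Other transcripts differed beside the core class at day 27. The cytosolic ribosomal proteins were below 0 in 67 of 68 members at day 27, with a median of -0.23, and 35 passed the test as lower. Their level ran from -0.26 to 0.25 in air and from -0.33 to -0.055 in exposed libraries, and the lowest and highest air libraries, 2 and 7, were also the lowest and highest for the Sm and U snRNP class, which ran from -0.19 to 0.22 in air and from -0.25 to -0.046 in exposed libraries. Of 6 B cell markers, 6 lay below 0 and 2 passed as lower, and their summed level was 90.3, 126 and 227 CPM in air and 73.9, 82.0 and 117 CPM in exposed libraries (lowest, median and highest). None of the B cell markers was listed at 0 in all libraries. Of 4 alveolar macrophage markers tested, 4 lay below 0 (median -0.23) and 1 passed as lower, with a summed level of 209.4, 241.6 and 383 CPM in air and 221, 246.03 and 257.7 CPM after exposure. Of 5 T cell markers, 4 lay below 0 (median -0.26) and 1 passed as lower, with 78.8, 106.6 and 134 CPM in air and 75.0, 97.4 and 122 CPM after exposure. Of 4 endothelial markers tested, 3 lay below 0 (median -0.046) and 1 passed as lower. Over all genes, 3.33% passed as lower. No marker of the other lists passed. Below 0 lay 3 of 4 alveolar type 1 (median -0.12), 3 of 5 alveolar type 2 (-0.11) and 5 of 5 heart and pulmonary vein muscle markers (-0.26). Above 0 lay 3 of 3 red cell (0.062) and 2 of 4 neutrophil markers (0.070). Genes of heat shock and temperature response lay above 0 in 8 of 10, with a median of 0.38. Of these genes 0 passed edgeR's test, with 5 higher and 1 lower at an unadjusted p under 0.05. Their level ran from -0.60 to 0.60 in air and from 0.24 to 1.29 in exposed libraries, each exposed library being above the air mean. These differences were not all particular to day 27. At day 1 the level of the heat shock and temperature response genes ran from -0.74 to 0.37 in air. In exposed libraries it ran from 0.013 to 0.71, again all above the air mean. Ribosomal protein genes lay below 0 in 55 of 68 at day 1, with a median of -0.060 and 0 called. In whole lung, fewer cells of a type and less RNA per cell cannot be told apart. The part of the ribosomal protein, heat shock, temperature response and cell marker differences in the members' values was not tested. The U1 and U2 associated genes without Rbm39 ran from -0.12 to 0.14 in air (median -0.054) and from -0.013 to 0.24 in exposed libraries (median 0.15).

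**Figure D4:**
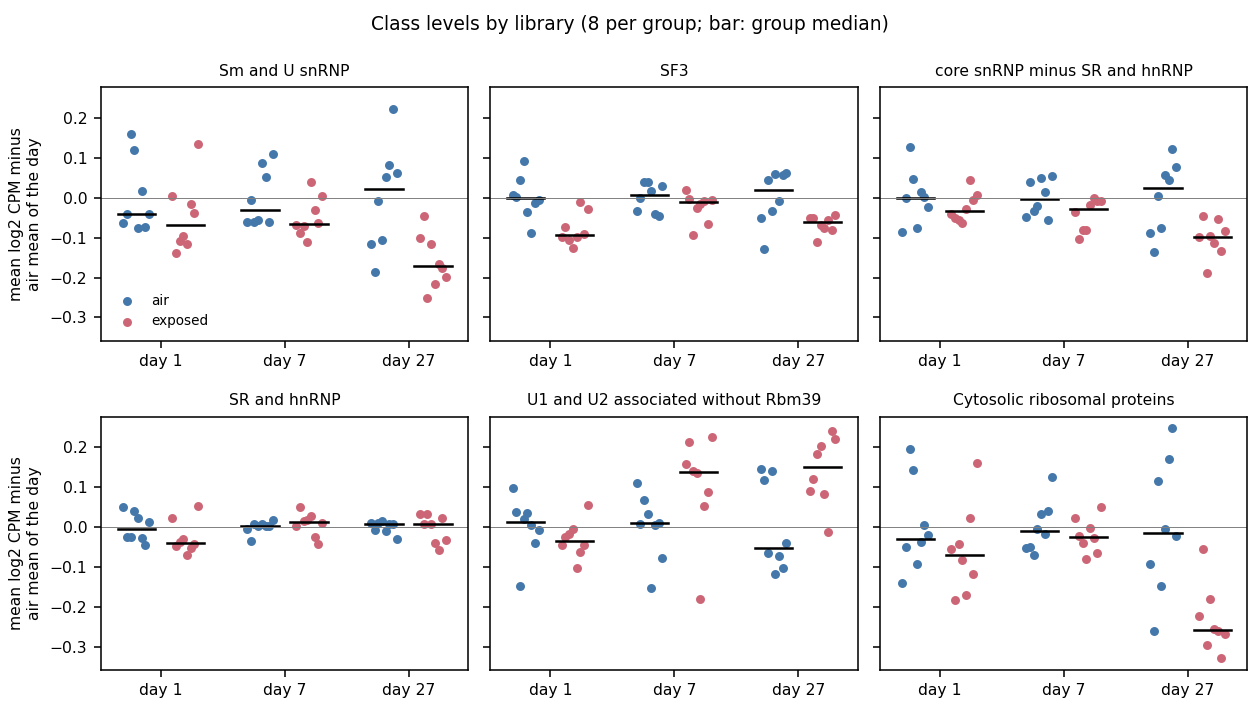
Mean log2 CPM of 6 gene groups in each library relative to the air mean of the same day (vertical axis; points, 8 per group, blue for air and red for exposed; bars, group medians). At day 27 the Sm and U snRNP, SF3, core minus regulator and ribosomal protein levels of all 8 exposed libraries lie below 0. The air libraries lie on both sides, and the SR and hnRNP level stays near 0 at each day.

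At day 1, 0 of 78 members passed, against 0.0279% of the 14314 genes tested (edgeR), and DESeq2 also gave 0. At an unadjusted p under 0.05, 1 member was higher and 8 were lower, 11.5% against 8.67% of all genes. Most members lay slightly below 0, 56 of 78 with a median of -0.035, beside 0.0019 over all genes. This held for 27 of 31 core members (median -0.053), including 16 of 17 Sm and U snRNP and 8 of 9 SF3 members, and for 21 of 29 SR and hnRNP members (median -0.024). The exception among the Sm and U snRNP proteins was Snrpn (0.30 ± 0.16, edgeR adjusted p = 0.606). The smallest p belonged to Srsf5, an SR protein, at 186, 205 and 244 CPM in air and 165, 176 and 201 CPM after exposure. Of its 8 exposed libraries, 6 lay below the lowest air library (-0.21 ± 0.057, edgeR adjusted p = 0.318). Sf3a2 stood at 32.7, 40.1 and 46.2 CPM in air and 30.7, 33.3 and 38.0 CPM after exposure (-0.22 ± 0.069, edgeR adjusted p = 0.398), each exposed library being under the mean in air. Luc7l2 lay lower too, opposite to day 27, at 122, 129 and 140 CPM in air against 110.2, 118 and 132 CPM (-0.11 ± 0.040, edgeR adjusted p = 0.406). Among members of at least 10 CPM, Hnrnpdl (-0.11 ± 0.050), Prpf38b (-0.093 ± 0.038) and Snrpc (-0.10 ± 0.051) had the largest log2 fold changes of their classes, and their edgeR adjusted p were 0.567, 0.4999 and 0.583. Lsm12, an Sm-like protein outside the spliceosome, had medians of 55.5 and 58.2 CPM (0.033 ± 0.056, edgeR adjusted p = 0.910). No member separated the groups completely, against 0.0768% of all genes.

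At day 7, 0 of 78 members passed, as did 0% of the 14259 genes tested (edgeR), and DESeq2 gave 0 as well. At an unadjusted p under 0.05, 3 members were higher and 3 lower, 7.69% against 8.47% of all genes. The core median was -0.028, with 19 of 31 below 0, and the SR and hnRNP median 0.021, with 19 of 29 above 0, beside -0.00074 over all genes. SR proteins lay above 0 in 9 of 11, assembly and activation factors in 8 of 9, and the U1 and U2 associated regulators in 5 of 5, with a median of 0.093. Luc7l had 23.9, 29.7 and 31.5 CPM in air and 21.1, 36.1 and 38.6 CPM after exposure. Of its exposed libraries, 6 lay above the highest air library and 1 below the lowest (0.25 ± 0.099, edgeR adjusted p = 0.510). Srsf11, an SR-related protein, had medians of 88.9 and 97.9 CPM (0.15 ± 0.048, edgeR adjusted p = 0.445). Hnrnpa0 had medians of 48.2 and 42.1 CPM with 8 of 8 exposed libraries under the mean in air (-0.18 ± 0.059, edgeR adjusted p = 0.445). Prpf40b, an assembly factor that associates with U1, had medians of 27.8 and 29.3 CPM (0.088 ± 0.051, edgeR adjusted p = 0.655), and Lsm12 56.3 and 53.5 CPM (-0.038 ± 0.037, edgeR adjusted p = 0.814). On the core side Lsm7 (-0.20 ± 0.094), Sf3b5 (-0.11 ± 0.053) and Prpf31 (-0.093 ± 0.058) lay below 0, at edgeR adjusted p of 0.585, 0.592 and 0.673. Snrpn, above 0 at day 1, lay below it here (-0.31 ± 0.13, edgeR adjusted p = 0.550). As at day 1, no member separated the groups, against 0.0421% of all genes.

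**Figure D5:**
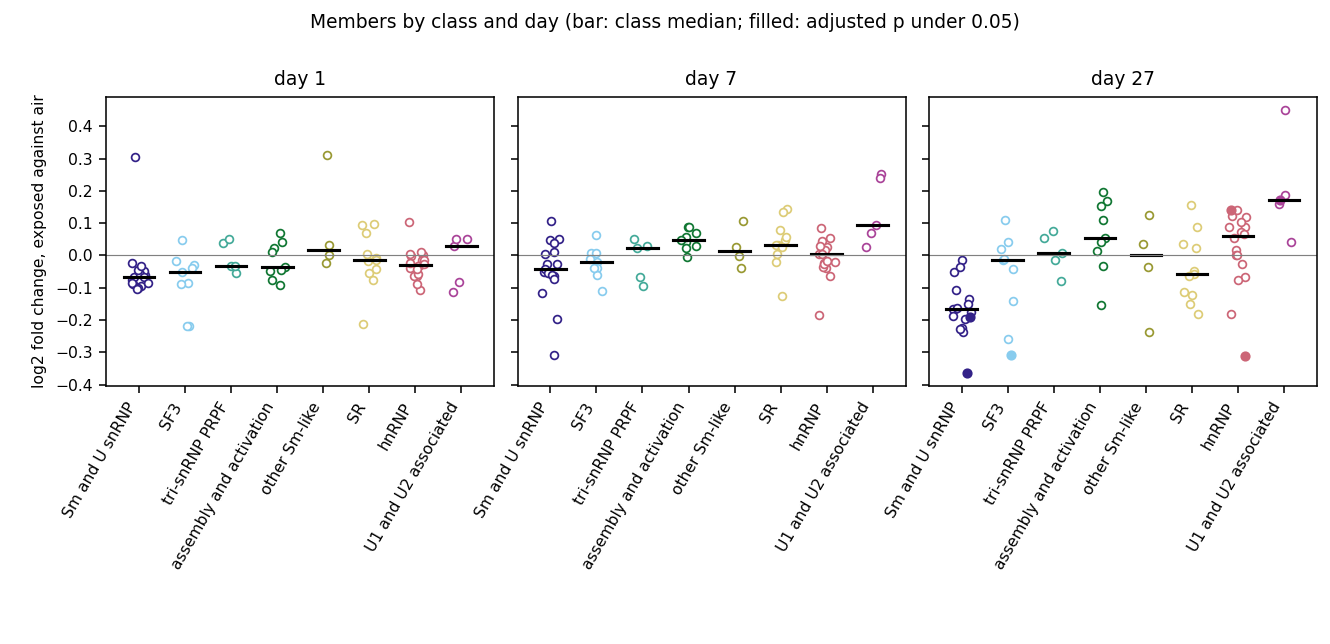
Log2 fold change of exposed against air lungs (vertical axis) for each of the 78 members (points) by class at days 1, 7 and 27, with the class median as a bar and filled points for an edgeR adjusted p under 0.05. Filled points appear at day 27, where the medians of the Sm and U snRNP and the U1 and U2 associated classes lie at -0.17 and 0.17.

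Whether the response to exposure differed between days was tested in 1 fit of all 48 libraries. Between days 27 and 1, 1 of 78 members differed (0.498% of the 14852 genes tested), and 10 were higher and 7 lower at an unadjusted p under 0.05, 21.8% of them against 14.6% of all genes. This was Luc7l2, whose log2 fold change was -0.11 at day 1, 0.025 at day 7 and 0.17 at day 27. The difference between days 27 and 1 was 0.29 ± 0.055 (edgeR adjusted p = 0.0129). It kept its call when each of the 32 libraries of these days was left out in turn, with adjusted p of 0.00402 to 0.0273 (edgeR), and when the close pairs were summed (0.27, edgeR adjusted p = 0.0324). The air medians of Luc7l2 were 129, 122 and 115 CPM at days 1, 7 and 27 and the exposed medians 118, 125 and 127 CPM. The labels do not say whether the days were sequenced together, but each difference is taken from air lungs of the same day. Next came Hnrnpa2b1 (0.18 ± 0.050, edgeR adjusted p = 0.0691) and Hnrnpa3 (0.20 ± 0.055, edgeR adjusted p = 0.0751). Between days 27 and 7, 0 members passed in edgeR, where 0.0202% of all genes did. DESeq2 gave 2 members, and its share of all genes is not given here. In edgeR, 6 members were higher and 8 lower at an unadjusted p under 0.05 (17.9% against 14.9% of all genes). Hnrnpa3 had the smallest p (0.20 ± 0.055, edgeR adjusted p = 0.111). Between days 7 and 1, 0 passed (edgeR; 0% of all genes did, and DESeq2 gave 0 members), with 5 higher and 1 lower at an unadjusted p under 0.05 (7.69% against 7.5% of all genes). In edgeR, 0 of 31 core members were thus shown to respond differently between days.

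Of 75 other splicing genes, 73 had values. At days 1 and 7, 0 of the 73 passed edgeR's test. At an unadjusted p under 0.05, 2 of the 73 were higher and 8 lower at day 1, beside 8.67% of all genes. At day 7, 8 were higher and 2 lower, beside 8.47% of all genes. At day 27, 18 were higher and 8 lower, beside 26.7% of all genes. At an adjusted p under 0.05, 3 were higher and 2 lower at day 27, 6.85% of them, beside the 5.52% of all genes given above. The median was 0.034 with 43 above 0. The higher ones were Rbm5, a regulator of exon choice in apoptosis genes (0.13 ± 0.034, edgeR adjusted p = 0.0351), Srpk2, a kinase that phosphorylates SR proteins (0.19 ± 0.049, edgeR adjusted p = 0.0353), and Tnpo3, which carries SR proteins into the nucleus (0.13 ± 0.034, edgeR adjusted p = 0.0357). Srpk2 ran from 55.9 to 73.6 CPM in air and 70.6 to 79.8 CPM after exposure, and Tnpo3 from 71.5 to 79.6 CPM and 80.3 to 90.1 CPM. The ranges met for Srpk2 and did not for Tnpo3. The lower ones were Ptbp1, a repressor of exons that binds pyrimidine tracts (-0.14 ± 0.029, edgeR adjusted p = 0.0250), and Xab2, a component of the activated spliceosome (-0.17 ± 0.047, edgeR adjusted p = 0.0410). Ptbp1 ran from 253.1 to 273.8 CPM in air and from 231 to 244 CPM after exposure, without overlap. Across all genes, 0.444% showed no overlap at day 27. The ranges of Rbm5 and Xab2 are not given here.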

How the data were processed

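The authors deposited expected counts per gene, 1 table per day with 32285 identifiers, not normalized. Per the submitters' processing notes, Salmon 1.10.1, STAR 2.6.1d, Trim Galore 0.6.7, cutadapt 3.4 and bcl2fastq 2.19 were used with Rnor_6.0. The labels' protocols name a stranded library kit for polyadenylated RNA. Counts (5.58% not whole at a tolerance of 1e-06) were rounded to whole numbers. The identifier with most counts stood for each name.

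Each day was tested over the whole table with edgeR 4.0.16 in R 4.3.3 (TMM, filterByExpr, robust quasi-likelihood F test, Benjamini-Hochberg, threshold 0.05), and all 78 members passed the filter at each day. SE is the log2 fold change divided by the square root of F. CPM uses TMM-scaled totals. Alternatives used DESeq2 1.42.0, limma-voom (3.58.1), sva 3.50.0, RLE factors, other filters, 1 fit of all libraries, summed identifiers, summed close pairs, and each library left out. The steps were tested on simulated counts. Levels are not compared between genes, since gene lengths were not used here.

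The members and lists were chosen with earlier results of these data known. Named genes were all called members, the largest change per class and day at 10 CPM or more, and a fixed list of core and regulator genes. For 1 assembly and activation factor the values are not reported here. Library numbers follow animal numbers. The main tests set the exposure difference against the variation between libraries, with each library of a close pair counted on its own.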

Additional observations from a re-analysis of the deposited data

Results flagged for a closer look

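Among 35 named members in 6 groups of 8 libraries, 16 of 210 combinations held 1 library whose gap to its nearest neighbour was, relative to the group's range, above Dixon's 95% critical value. Chance gives about 1 in 20. In exposed day 1 libraries, library 8 was high for Hnrnpa2b1 (496 CPM, next 448), Lsm7 (16, next 13.1) and Srsf3 (231, next 211) and low for Prpf8 (308, next 377), library 1 was high for Lsm1 (15.4, next 13.4), and library 5 was low for Luc7l (26.1, next 30.6). In exposed day 27 libraries, library 7 was high for Ddx46 (138 CPM, next 119), Hnrnpdl (111, next 99.9) and Rbm25 (33.9, next 29.2), and library 6 was low for Srsf7 (46.5, next 54.96). Air day 27 library 7 was high for Srsf2 (205 CPM, next 180). In the air day 1 group, Prpf38b was high in library 4 (126 CPM, next 115) and Srsf11 in library 1 (116 CPM, next 104). In the day 7 groups, Hnrnpa2b1 was high in air library 8 (464 CPM, next 445), Prpf31 in air library 5 (39.3 CPM, next 33.7), and Prpf38b was low in exposed library 5 (92.4 CPM, next 109).

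Luc7l2 is listed because its response to exposure differed between days 27 and 1, by 0.29 on the log2 scale (edgeR adjusted p = 0.0129).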

How the results depend on the processing

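No paired analysis was possible because the labels give no replicate number shared between groups. At days 1 and 7, 0 members passed under every alternative run, leaving out each library included. At day 27 the count of 6 became 3 with no filter on low counts, 16 with DESeq2 (10 lower), 20 in a joint fit of the 48 libraries (14 lower), 1 with 1 surrogate variable and 0 with close pairs summed, and stayed at 6 with RLE factors, a mean of at least 1 CPM, limma-voom and summed identifiers. Leaving out 1 library gave 0 to 13 members, 13 without air library 2 and 0 without exposed library 3. The share of all genes moved with the members' share: 20.5% of members and 11.8% of all genes with DESeq2, 25.6% and 14.99% in the joint fit, and 16.7% and 13.5% without air library 2, while it was 1.94% of all genes with no filter, 0.475% with 1 surrogate variable and 0.0351% with close pairs summed. The core snRNP median at day 27 was -0.052 with 1 surrogate variable and -0.15 to -0.10 with 1 library left out. DESeq2 gave 5 members for day 27 against day 1 and 2 for day 27 against day 7, and leaving out 1 library, an alternative chosen after seeing the data, gave 1 to 3 for day 27 against day 1. The shares of all genes in these between-day fits are not given here, so the counts have no background beside them. The causes were not tested. Over 9 alternatives Sf3a2 was called in 8, Luc7l2 and Snrpa in 7, and Snrpb, Hnrnpa0 and Hnrnpa3 in 6, with no change of sign. Over 25 settings at day 27, Sm and U snRNP members below 0 numbered 15 to 17 and U1 and U2 associated members above 0 numbered 3 to 5. For members near 1 CPM, the totals of 9445687 to 14400337 counts set the precision.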
